A study of Mus musculus with 8 samples.

Results

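The genes described here are 38 genes of autophagy and of the lysosome, taken by gene name from all 8 quantification tables of the study. The list was chosen with earlier results of these data known. All 38 had a row and passed the filter on low counts, out of 35087 named rows of which 15102 were tested. They comprise 20 genes of the autophagy machinery, 3 autophagy receptors, 2 transcription factors and 13 lysosomal proteins. RNA was sequenced from granulosa cells, which line the follicle around the egg cell and were cut by laser from cryosections of mouse ovary. The cKO group (n = 2 libraries) carried Hif1aflox/flox and Foxl2-CreERT2, a tamoxifen-inducible Cre driven from the granulosa cell gene Foxl2. The WT group (n = 6 libraries) carried Hif1aflox/flox without Cre. Female mice of both groups received tamoxifen at 100 mg/kg daily for 5 days from an age of 3 weeks, and their ovaries were taken 7 days after dosing ended. By genotype label the cKO libraries are a knockdown and the others wild type, although the WT Hif1a alleles were floxed too. The library name in the description starts with cKO for all 8 samples, the WT libraries included, and the groups here follow titles and genotype labels. Follicle stage and the number of cells or follicles in a capture are not given in the labels.

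Autophagy encloses cytoplasm in a double membrane, the autophagosome, and delivers it to the lysosome for breakdown. The ULK1 kinase complex starts the process, a PI3-kinase complex with Beclin 1 marks the membrane, and a conjugation system attaches proteins of the ATG8 family (LC3 and GABARAP) to it. Receptors such as p62, the product of Sqstm1, bind both cargo and ATG8 proteins, and the transcription factors TFEB and TFE3 switch on many lysosomal and autophagy genes. In the ovary, autophagy in granulosa cells has been linked to follicle atresia, the loss of follicles before ovulation.

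Depth and marker levels differed between libraries. Depth and the summed markers of granulosa cells, theca and stroma, oocyte and endothelium overlapped between the groups. The mitochondrial share and the number of genes with 5 or more reads did not. Named genes took 2054584 and 651426 reads in cKO replicates 1 and 2, against 1594803 to 4719293 reads in WT. Levels are given as CPM, a library's reads of a gene scaled to a common library size. A count of 3 reads was worth 1.52 and 4.10 CPM in cKO, and between 0.655 and 1.65 CPM in WT. Genes with 5 or more reads numbered 12847 and 12120 in cKO, against 13597 to 14727 in WT. Transcripts of the mitochondrial genome made up 8.87% and 10.5% of reads in cKO, against 1.42% to 3.65% in WT. Hif1a had 22.3 and 13.7 CPM in cKO, against 35.5 to 106.2 CPM in WT, without overlap. The granulosa gene Foxl2 was present in every library, with 126.4 and 88.8 CPM in cKO, against 91.4 to 332 CPM in WT. The summed level of 10 granulosa markers was 5294 and 1824 CPM in cKO, against a lowest of 3523, a median of 21913 and a highest of 64329 CPM in WT. Summed markers of theca and stroma had 1910 and 475 CPM in cKO, against 28.6 to 1488 CPM in WT, and those of the oocyte 52.3 and 27.3 CPM in cKO, against 7.02 to 1811 CPM in WT. Summed endothelial markers had 267 and 239 CPM in cKO, against 365 CPM in WT replicate 1 and 71.4 to 179.8 CPM in WT replicates 2 to 6. In the granulosa gene Inhba, which encodes an activin subunit, the cKO libraries had 351 and 61.5 CPM. WT replicate 1 had 51.7 CPM and WT replicate 2 had 93.5 CPM, while WT replicates 3 to 6 had between 2250 and 11052 CPM. WT replicates 1 and 2 thus lay with the cKO libraries in this gene, against their labels' grouping. In Amh, another granulosa gene, the same libraries were the high ones. It had 610 and 224 CPM in cKO, and 767 and 1126 CPM in WT replicates 1 and 2. WT replicates 3 to 6 had between 2.34 and 176 CPM of Amh. Results are also given for the libraries numbered 1 and 2 alone. No label names the animal behind a library. Some may share one, so p-values may be too small and measure only the spread between these libraries.

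Most of the 38 genes had lower levels in cKO, with the largest differences in ATG8 family, receptor and cathepsin genes and differences near 0 in the initiation complex. A negative log2 fold change means a lower level in cKO than in WT. It was negative for 33 of 38 genes, where it was negative for 52.7% of all genes tested, and positive for 5 of 38, where it was positive for 47.3%. The median over the 38 genes was -0.78, beside -0.08 over all genes tested. Because the list was chosen with earlier results of these data known, the shares here and below describe it and are no test of it. No gene of the list, and none of all genes tested (0% called), had an adjusted p under 0.05 in edgeR's quasi-likelihood test, and the lowest adjusted p among the 38 genes was 0.369. At an unadjusted p under 0.05, 13 of the 38 genes were lower in cKO (8.89% of all genes tested) and 0 were higher (3.4% of all genes tested). In 6 genes both cKO libraries lay below all WT libraries, which held for 6.41% of all genes tested, and in 0 genes above them, which held for 6.02%. DESeq2 gave an adjusted p to 32 of the 38 genes and called 2 of them, Sqstm1 and Ctsl, both lower in cKO, where it called 3.42% of the genes it tested as lower and 0.391% as higher. limma on log2(TPM + 1) called 0 of the 38 genes.

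**Figure D1:**
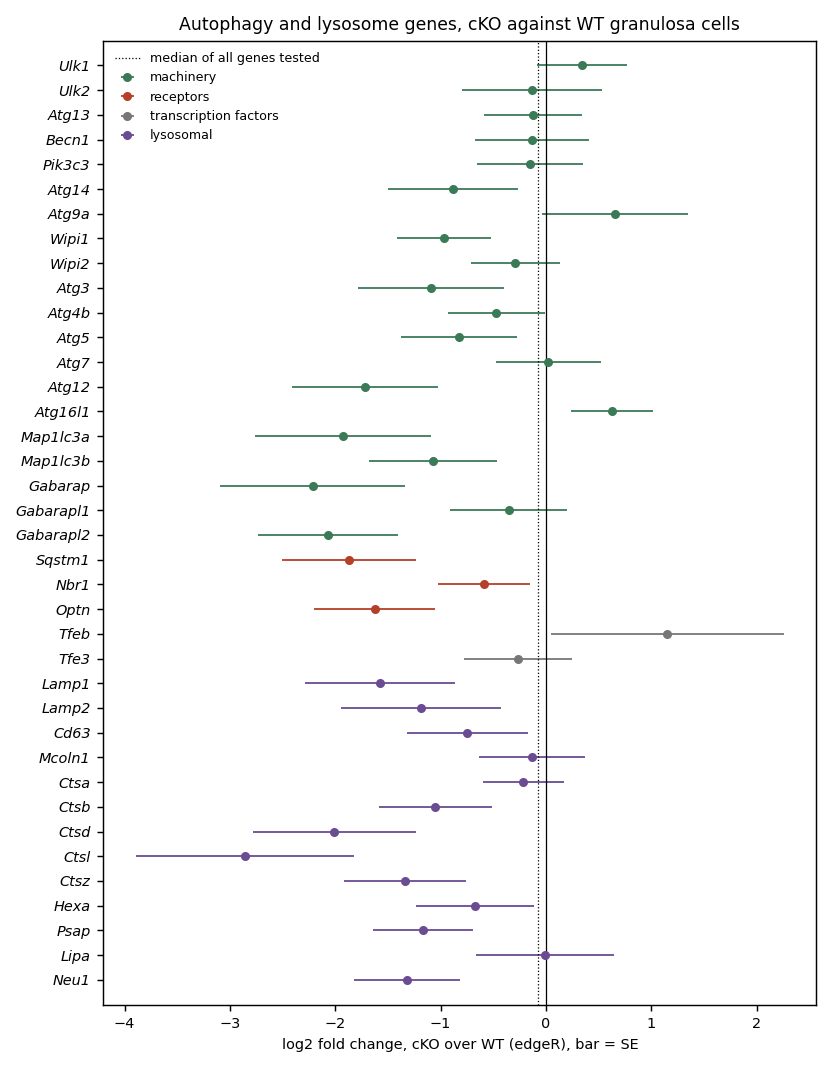
Log2 fold change of cKO over WT (horizontal axis) for each of the 38 genes in the order of the text, with points coloured by class, bars for the standard error and a dotted line at the median of all genes tested. All 13 lysosomal and all 3 receptor genes lie below 0, while the first genes of the machinery lie near 0.

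The counts rested on particular libraries. Without WT replicate 4, 7 of the 38 genes had an unadjusted p under 0.05 in edgeR. Leaving out a cKO library leaves a single library in that group, so only signs and effect sizes are given for those fits. The fold change was negative for 30 of the 38 genes without cKO replicate 2, the shallowest library, and for 35 without cKO replicate 1. The median over all genes also moved further below 0 in both fits. Shares over all genes in fits on part of the libraries are not given here. cKO replicate 2 had a lower normalised count than cKO replicate 1 in 34 of the 38 genes (89.5%), beside 53.5% of all genes tested. Among the WT libraries, WT replicate 1 was the lowest in 20 of the 38 genes (52.6%), beside 29.5% of all genes tested, and WT replicate 4 was the highest in 13 of them (34.2%, beside 11.7%). In the libraries numbered 1 and 2 of both groups, which leave out WT replicates 3 to 6, the fold change was negative for 26 of 38 genes and 1 gene, Optn, had an unadjusted p under 0.05.

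**Figure D2:**
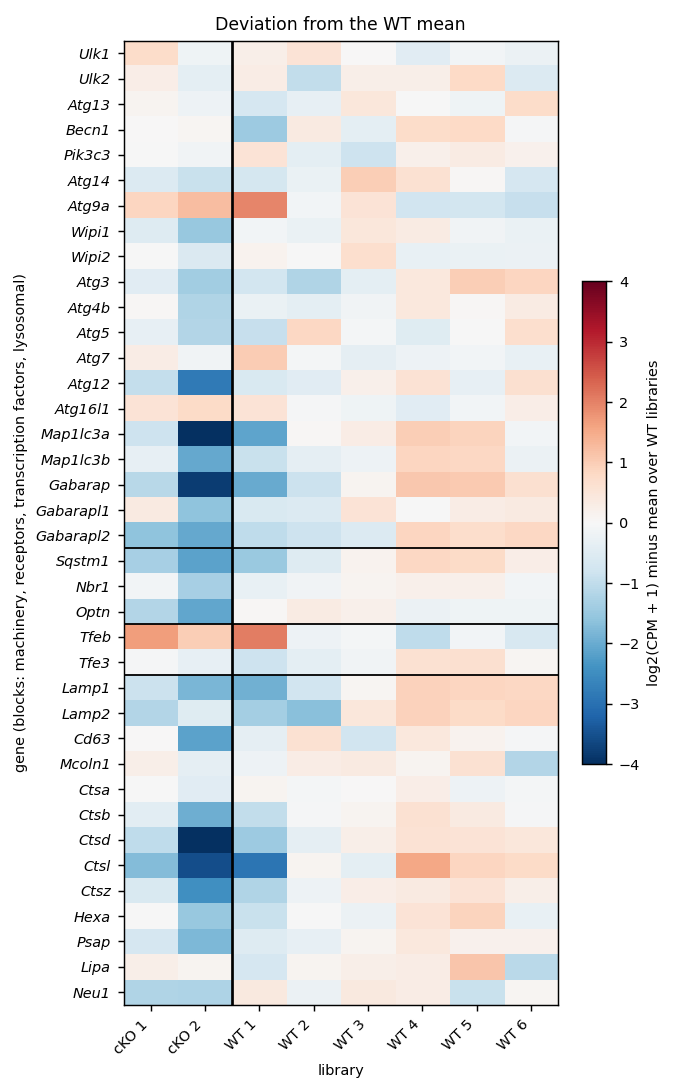
Level of each of the 38 genes (rows) in each library (columns), as log2(CPM + 1) minus the mean over the 6 WT libraries, with lower levels in blue and higher levels in red. The bluest cells are Map1lc3a, Gabarap, Ctsd and Ctsl in cKO replicate 2, and several of the same rows are blue in WT replicate 1.

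The 3 genes of the initiation complex did not differ beyond the spread between libraries. Ulk1 (chromosome 5, 110784488 to 110810097, minus strand; coordinates here and below are of GRCm38) encodes the kinase that starts autophagosome formation. It had 76.1 and 39.6 CPM in the cKO libraries, against a lowest of 32.9, a median of 43.5 and a highest of 66.2 CPM in WT, which gave 0.34 ± 0.43 on the log2 scale (SE; adjusted p = 0.762 in edgeR). cKO replicate 1 lay above all WT libraries and cKO replicate 2 among them. Atg13, a partner of that kinase, had 49.2 and 39.6 CPM in cKO, against a lowest of 28.6, a median of 42.9 and a highest of 76.4 CPM in WT (log2 fold change -0.12 ± 0.47). Both cKO libraries lay among the WT libraries. Ulk2, a close relative of Ulk1, was at -0.13 ± 0.66.

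In the PI3-kinase complex, the groups overlapped for each of the 3 genes. Becn1 (Beclin 1) had 51.8 and 53.3 CPM in cKO, against a lowest of 18.1, a median of 57.3 and a highest of 88.3 CPM in WT, which gave -0.13 ± 0.54 on the log2 scale (SE; adjusted p = 0.934 in edgeR). Pik3c3, the catalytic subunit, had 28.4 and 26.0 CPM in cKO, against a lowest of 15.6, a median of 32.8 and a highest of 42.9 CPM in WT (-0.15 ± 0.50). Atg14, which directs this complex to autophagy, had 17.8 and 13.7 CPM in cKO, against a lowest of 15.9, a median of 24.5 and a highest of 53.8 CPM in WT (-0.88 ± 0.62). Of the 3 genes, Atg14 had the most negative value, and cKO replicate 1 still lay above the 2 lowest WT libraries.

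Genes for the supply of membrane and for the reading of its lipid mark went both ways. Wipi1, which binds the lipid made by the PI3-kinase complex, had 60.9 and 30.1 CPM in cKO, against a lowest of 72.9, a median of 80.8 and a highest of 122 CPM in WT, which gave -0.97 ± 0.45 on the log2 scale (SE; unadjusted p = 0.0490 and adjusted p = 0.406 in edgeR). Both cKO libraries lay below all WT libraries, and the value stood at -0.63 once cKO replicate 2 was left out and at -1.64 once cKO replicate 1 was. Wipi2, its relative, was at -0.29 ± 0.42. Atg9a, a lipid scramblase carried on vesicles, had 377 and 486 CPM in cKO, against a lowest of 109, a median of 156 and a highest of 803 CPM in WT (0.66 ± 0.69, edgeR adjusted p = 0.705). Both cKO libraries lay above 5 of the 6 WT libraries, and only WT replicate 1 was higher. Without WT replicate 1 the value of Atg9a was 1.38, with an unadjusted p = 0.00927 and an adjusted p = 0.120 in edgeR, and in the libraries numbered 1 and 2 it was -0.16. Atg9a shares 1832 of its 5762 annotated exon bases with Gm29253, and reads from these bases cannot be told between the genes.

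The conjugation system, which prepares ATG8 proteins and links them to the membrane lipid, also held values of both signs. Atg12, a ubiquitin-like protein of this system, had 12.7 and 2.73 CPM in cKO, against a lowest of 16.5, a median of 24.9 and a highest of 40.8 CPM in WT, which gave -1.72 ± 0.70 on the log2 scale (SE; unadjusted p = 0.0270 and adjusted p = 0.378 in edgeR). The groups did not overlap, but the cKO values rested on 25 and 2 reads, and the second is under 3 reads. Its value stood at -1.18 once cKO replicate 2 was left out and at -3.37 once cKO replicate 1 was. Atg16l1, which places the conjugation at the membrane, had 90.3 and 105 CPM in cKO, against a lowest of 44.5, a median of 58.5 and a highest of 90.7 CPM in WT (0.63 ± 0.39, edgeR adjusted p = 0.516). Here cKO replicate 2 lay above all WT libraries and cKO replicate 1 just below the highest. The other conjugation genes were at -1.09 ± 0.70 for Atg3, -0.82 ± 0.55 for Atg5, -0.47 ± 0.46 for the protease gene Atg4b and 0.02 ± 0.50 for Atg7, none with an unadjusted p under 0.05. Over all 20 genes of the machinery, 16 were lower and 4 higher, with a median of -0.41. Leaving out cKO replicate 2 put that median at -0.20, and leaving out cKO replicate 1 at -1.25.

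The ATG8 family held the lowest values of the machinery. All 5 genes had a negative log2 fold change, with a median of -1.93, and 3 of them had an unadjusted p under 0.05 (over all genes tested, 52.7% were negative and 8.89% lower at that p). Gabarapl2 (chromosome 8, 111940703 to 111953612, plus strand) had 20.8 and 15.0 CPM in cKO, against 31.9, 36.6, 44.1, 121, 108 and 116 CPM in WT replicates 1 to 6. Both cKO libraries lay below all WT libraries, and the WT libraries themselves split into 3 near the cKO level and 3 far above it. This gave -2.07 ± 0.67 (log2, SE; edgeR unadjusted p = 0.00785, adjusted p = 0.369), and -0.84 in the libraries numbered 1 and 2.

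Gabarap (chromosome 11, 69991143 to 69994951, plus strand) had 68.0 and 9.56 CPM in cKO, against 35.2, 80.9, 158, 311, 304 and 228 CPM in WT replicates 1 to 6. WT replicate 1 lay inside the cKO range. Its log2 fold change of -2.22 ± 0.87 (SE; edgeR unadjusted p = 0.0241, adjusted p = 0.376) stood at -1.54 once cKO replicate 2 was left out, at -4.34 once cKO replicate 1 was, and at -0.47 in the libraries numbered 1 and 2. Map1lc3a had 56.3 and 5.46 CPM in cKO, against a lowest of 22.5, a median of 115 and a highest of 202 CPM in WT (-1.93 ± 0.84, edgeR unadjusted p = 0.0374, adjusted p = 0.386). Its value in cKO replicate 2 rested on 4 reads, and leaving that library out put the fold change at -1.20. Map1lc3b, whose product is the usual marker of autophagosomes, had 119.8 and 35.5 CPM in cKO, against a lowest of 79.7, a median of 128 and a highest of 272 CPM in WT (-1.07 ± 0.61, edgeR adjusted p = 0.478). Gabarapl1 had 50.2 and 12.3 CPM in cKO, against a lowest of 25.3, a median of 43.5 and a highest of 57.7 CPM in WT (-0.35 ± 0.55, edgeR adjusted p = 0.813). For these last 3 genes cKO replicate 1 lay within the WT range and cKO replicate 2 below it.

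The 3 receptor genes all had negative values, with a median of -1.62. Sqstm1 (chromosome 11, 50199366 to 50210827, minus strand), which encodes p62, had 90.3 and 51.9 CPM in cKO, against 82.4, 160.2, 255, 408, 391 and 277 CPM in WT replicates 1 to 6. WT replicate 1 lay between the cKO libraries and the other 5 WT libraries lay above both. Its log2 fold change was -1.87 ± 0.63 (SE; edgeR unadjusted p = 0.0106, adjusted p = 0.369; DESeq2 adjusted p = 0.0444), and -0.67 in the libraries numbered 1 and 2.

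Optn (chromosome 2, 5020642 to 5064051, minus strand) encodes optineurin, a receptor for damaged mitochondria and bacteria. It had 11.2 and 5.46 CPM in cKO, against 27.5, 33.1, 30.8, 22.2, 23.1 and 23.6 CPM in WT replicates 1 to 6. The groups did not overlap, and the WT libraries lay within 1.49-fold of each other, with WT replicate 2 the highest. On the log2 scale this gave -1.62 ± 0.57 (SE; edgeR unadjusted p = 0.0135, adjusted p = 0.369). In the libraries numbered 1 and 2 Optn was at -1.74, with an unadjusted p = 0.0465 in edgeR. The lowest edgeR adjusted p of the 38 genes in that fit was 0.9998. Optn stood at -1.31 once cKO replicate 2 was left out. A fit that also held each library's detected genes gave -1.74, with an unadjusted p = 0.115 in edgeR. Detected genes did not overlap between the groups, so that fit cannot separate them from genotype. The cKO values rested on 22 and 4 reads. Nbr1, a receptor for ubiquitinated cargo, had 61.9 and 26.0 CPM in cKO, against a lowest of 53.9, a median of 66.7 and a highest of 77.2 CPM in WT (-0.59 ± 0.44, edgeR adjusted p = 0.585). cKO replicate 1 lay among the WT libraries and cKO replicate 2 below them.

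**Figure D3:**
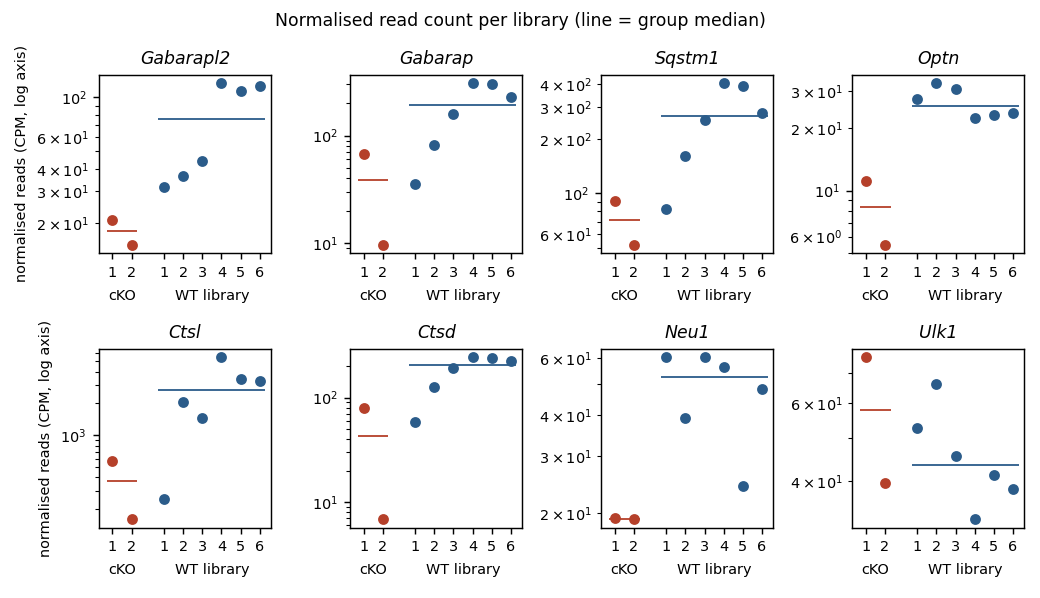
Normalised read count (vertical log axis, CPM; each panel has its own scale) of 8 genes in the cKO libraries (red, left) and the WT libraries (blue, right), with a line at each group's median. In Optn, Neu1 and Gabarapl2 both cKO libraries lie below all 6 WT libraries, while in Gabarap, Sqstm1, Ctsl and Ctsd WT replicate 1 lies at or below the level of cKO replicate 1.

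Neither transcription factor gene passed the test. Tfeb had 11.7 and 6.83 CPM in cKO, against 15.4 CPM in WT replicate 1 and between 0.967 and 2.73 CPM in WT replicates 2 to 6. Both cKO libraries thus lay above 5 of the 6 WT libraries. This gave 1.15 ± 1.11 (log2, SE; edgeR adjusted p = 0.674), or 2.16 once WT replicate 1 was left out, and the cKO values rested on 23 and 5 reads. Tfe3 had 32.0 and 26.0 CPM in cKO, against a lowest of 18.1, a median of 32.3 and a highest of 51.4 CPM in WT (-0.27 ± 0.51, edgeR adjusted p = 0.852). The cKO libraries of Tfe3 lay among the WT libraries.

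TFEB and TFE3 are known to bind the letters CACGTG, best within TCACGTGA, close to the start of many lysosomal genes, and the HIF1 dimer is known to bind sites that hold ACGTG. FOXO factors are known to bind GTAAACA. These letters were searched on both strands in the 250 bases before each RefSeq start on GRCm38.p6. Such windows were at hand for 32 of the 38 genes, 38 windows in all, and a gene counted if any of its windows matched. Some windows lie inside the annotated gene, such as that of Atg7 (chr6:114670846-114671095, in a gene from 114643097 to 114860614). Each CACGTG also holds ACGTG, so these counts overlap. TCACGTGA was found for 4 of the 32 genes (12.5%), beside 0.907% of all 27025 genes with a promoter, and CACGTG for 8 (25%), beside 6.86%. ACGTG was found for 14 of the 32 genes (43.8%), beside 18.5%, and GTAAACA for 0, beside 3.54%. A match is a description of these windows only. The sites with the 8 letters are shown to let their surroundings be compared, 5′ to 3′ on the strand of the gene, with the 8 letters in capitals.
Atg3: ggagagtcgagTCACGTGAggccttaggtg
Ctsa: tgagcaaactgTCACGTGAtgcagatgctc
Ctsd: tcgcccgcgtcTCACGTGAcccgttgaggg
Mcoln1: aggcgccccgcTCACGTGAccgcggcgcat
They lie at chr16:45158746-45158775 (plus strand) for Atg3, chr2:164833749-164833778 (plus strand) for Ctsa, chr7:142387908-142387937 (minus strand) for Ctsd and chr8:3500462-3500491 (plus strand) for Mcoln1. The Ctsa site lies in the window at chr2:164833523-164833772, and the other Ctsa window, chr2:164832622-164832871, holds none of the letters searched. The 4 genes did not share a level of difference. Their log2 fold changes were -1.09 for Atg3, -0.22 for Ctsa, -2.01 for Ctsd and -0.13 for Mcoln1. Over the 8 genes with CACGTG the median log2 fold change was -0.96, beside -0.71 over the 24 genes whose windows lack these letters. For TCACGTGA the order was the other way, -0.65 over the 4 genes with it and -0.78 over the 28 without, and for ACGTG the medians were -0.96 over 14 genes and -0.57 over 18.

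Lamp1 had the most such sites of the list, 4 CACGTG within 61 bases of the start, and is shown with Gabarapl2, whose window holds no CACGTG and a single ACGTG (as its reverse complement CACGT). Capitals mark these letters, and the 250 bases before the start run from chr8:13158911-13159160 for Lamp1 and chr8:111940453-111940702 for Gabarapl2, both on the plus strand.
Lamp1: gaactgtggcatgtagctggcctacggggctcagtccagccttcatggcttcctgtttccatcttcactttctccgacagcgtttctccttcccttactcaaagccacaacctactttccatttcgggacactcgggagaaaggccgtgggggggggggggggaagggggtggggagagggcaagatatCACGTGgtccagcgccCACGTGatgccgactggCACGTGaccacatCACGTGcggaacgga
Gabarapl2: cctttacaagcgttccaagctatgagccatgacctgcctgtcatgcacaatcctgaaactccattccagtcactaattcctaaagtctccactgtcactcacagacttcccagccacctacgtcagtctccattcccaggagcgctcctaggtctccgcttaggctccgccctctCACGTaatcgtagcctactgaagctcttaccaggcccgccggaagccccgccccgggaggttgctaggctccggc
The log2 fold changes of these genes were -1.57 for Lamp1 and -2.07 for Gabarapl2. The part of such sites in the levels was not tested.

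All 13 lysosomal genes had a negative log2 fold change, with a median of -1.16 and a range from -2.86 to -0.01, and 6 of them had an unadjusted p under 0.05 (over all genes tested, 52.7% were negative and 8.89% lower at that p). None had an adjusted p under 0.05 in edgeR. Leaving out cKO replicate 2 put the median at -0.78, and leaving out cKO replicate 1 at -1.92. In the libraries numbered 1 and 2 the median was -0.46, and in a fit that also held each library's detected genes -0.15. Detected genes did not overlap between the groups, so that fit cannot separate them from genotype. Lysosomal genes are also abundant in macrophages. Of 10 macrophage and blood markers, 9 had reads in cKO and 10 in WT, with a summed level of 60.4 and 42.3 CPM in cKO, against 5.08 to 41.8 CPM in WT. Tyrobp was at 0 in both cKO libraries, and Adgre1 was at 0 in cKO replicate 1 and in 5 of the 6 WT libraries. The sums of cKO replicate 2 and the highest WT library differed by less than 1 read of cKO replicate 2, which is worth 1.37 CPM. Of the 8 markers tested, 5 had a positive log2 fold change, up to 2.87 for Csf1r (25.4 and 6.83 CPM in cKO, against 0 to 10.9 CPM in WT), and 3 a negative one, with -0.32 ± 1.18 for Cd68, -1.09 ± 1.19 for Fcer1g and -3.36 ± 2.21 for C1qb. The part of these cells in the levels of lysosomal genes was not tested. The sum of the granulosa markers ran from 1824 to 5294 CPM in cKO and from 3523 to 64329 CPM in WT. It leaned on few genes, with 42623 CPM of Inha alone in WT replicate 4, and is no measure of cell number. Of these markers Foxl2 was at -0.68 ± 0.55, and only Amh had a positive log2 fold change, 0.22 ± 1.34. The others ran from -1.25 ± 0.71 for Nr5a2 to -4.28 ± 1.80 for Inhba. Fshr had 10.7 and 6.83 CPM in cKO, against 40.7 to 129 CPM in WT, without overlap. This gave -3.09 ± 0.67 (edgeR unadjusted p = 0.000415, adjusted p = 0.369). The mitochondrial share given above did not overlap between the groups, while the depth did. The part of these measures in the result was not tested. In such dissected tissue, fewer granulosa cells in a capture, another follicle stage and less RNA of a gene per cell cannot be told apart.

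Among the membrane proteins, Lamp1 (chromosome 8, 13159161 to 13175338, plus strand), a main glycoprotein of the lysosomal membrane, had 67.0 and 34.1 CPM in cKO, against 31.9, 72.7, 129, 237, 222 and 219 CPM in WT replicates 1 to 6. WT replicate 1 lay below both cKO libraries and the other 5 lay above both. Its value was -1.57 ± 0.71 (log2, SE; edgeR unadjusted p = 0.0442, adjusted p = 0.397), and in the libraries numbered 1 and 2 it turned to 0.059. Lamp2, another such glycoprotein that also serves chaperone-mediated autophagy, had 13.2 and 21.9 CPM in cKO, against 11.5, 9.02, 43.3, 59.5, 53.9 and 57.6 CPM in WT replicates 1 to 6 (-1.19 ± 0.76, edgeR adjusted p = 0.526). For Lamp2, WT replicates 1 and 2 each lay below both cKO libraries, and the value in the libraries numbered 1 and 2 was 0.85. The tetraspanin gene Cd63 was at -0.75 ± 0.57 and Mcoln1, which encodes a lysosomal calcium channel, at -0.13 ± 0.50.

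The cathepsins, the proteases of the lysosome, held the lowest value of the list. Ctsl (cathepsin L; chromosome 13, 64359337 to 64370890, minus strand) had 571 and 159.8 CPM in cKO, against 249, 2064, 1458, 5512, 3415 and 3246 CPM in WT replicates 1 to 6. WT replicate 1 lay between the cKO libraries, and the highest WT library had 22.1 times the lowest. Its log2 fold change was -2.86 ± 1.04 (SE; edgeR unadjusted p = 0.0155, adjusted p = 0.369; DESeq2 adjusted p = 0.0152), and -1.54 in the libraries numbered 1 and 2. Ctsd (cathepsin D; chromosome 7, 142375911 to 142388038, minus strand) had 79.7 and 6.83 CPM in cKO, against 58.2, 127, 190.3, 244, 238 and 221 CPM in WT replicates 1 to 6. The low value in cKO replicate 2 rested on 5 reads. Ctsd was at -2.01 ± 0.78 (log2, SE; edgeR unadjusted p = 0.0217, adjusted p = 0.374), at -1.25 once cKO replicate 2 was left out and at -0.99 in the libraries numbered 1 and 2. Ctsz had -1.34 ± 0.58 (edgeR unadjusted p = 0.0379, adjusted p = 0.386) and Ctsb -1.05 ± 0.54 (edgeR adjusted p = 0.440). Ctsa, a carboxypeptidase that also protects the sialidase encoded by Neu1, was at -0.22 ± 0.38, with WT libraries within 1.37-fold of each other.

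Of the genes for the breakdown of lipids and sugars, 2 had groups that did not overlap. Psap, whose product is cut into activators of sphingolipid breakdown, had 112 and 50.5 CPM in cKO, against 124, 142, 193, 243, 200.2 and 202 CPM in WT replicates 1 to 6, which gave -1.16 ± 0.47 (log2, SE; edgeR unadjusted p = 0.0281, adjusted p = 0.378). cKO replicate 1 was near WT replicate 1, and the value was -0.63 in the libraries numbered 1 and 2. Neu1 (chromosome 17, 34931253 to 34935953, plus strand), the lysosomal sialidase, had 19.3 and 19.1 CPM in cKO, against 60.4, 39.1, 60.4, 56.3, 24.2 and 48.2 CPM in WT replicates 1 to 6. Its cKO libraries were alike, and WT replicates 1 and 2 lay among the other WT libraries. On the log2 scale this gave -1.32 ± 0.50 (SE; edgeR unadjusted p = 0.0204, adjusted p = 0.374). Neu1 stood at -1.30 in the libraries numbered 1 and 2, with an unadjusted p = 0.0630 in edgeR, where the lowest adjusted p of the 38 genes was 0.9998. It stood at -1.38 once cKO replicate 2 was left out. Hexa, a subunit of beta-hexosaminidase, was at -0.67 ± 0.56. Lipa, the acid lipase that frees cholesterol from its esters, had the value nearest 0 of the lysosomal genes, -0.01 ± 0.66.

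Levels were compared between genes per length, in the deposited TPM. Ctsl had the highest mean level in both groups, 200.3 ± 63.0 TPM in cKO (SD, n = 2) and 1390 ± 965 TPM in WT (SD, n = 6). Next in WT came Cd63 with 201 ± 38.5 TPM, Sqstm1 with 199 ± 89.7 TPM and Gabarap with 197 ± 114 TPM, which do not differ beyond their spread. In cKO these genes had 109 ± 90.7, 70.4 ± 7.41 and 39.7 ± 44.1 TPM. Atg9a ranked 3 in cKO with 98.0 ± 34.4 TPM and 12 in WT with 65.1 ± 68.5 TPM. The lowest levels in WT were those of Tfeb with 3.41 ± 3.81 TPM, Ulk2 with 4.09 ± 2.73 TPM and Lipa with 5.80 ± 3.29 TPM, while in cKO they were those of Atg12 with 2.66 ± 2.05 TPM, Optn with 2.94 ± 0.905 TPM and Ulk2 with 4.19 ± 3.11 TPM. The length given for a gene varied between libraries, for Sqstm1 from 221 to 342 bases and for Ctsl from 768 to 1877 bases, so a TPM value also depends on which transcript the reads were assigned to. Levels are therefore uncertain for genes with short assigned lengths.

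**Figure D4:**
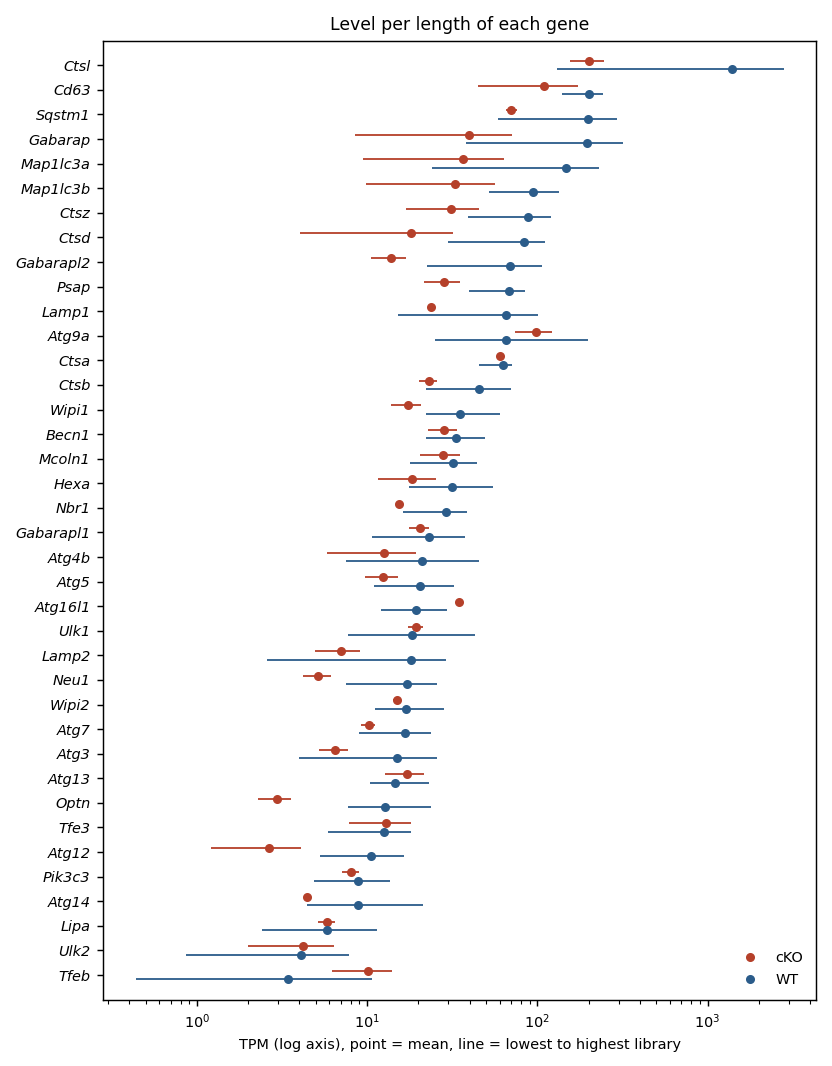
Level per length (horizontal log axis, TPM) of the 38 genes in order of their mean in WT, with cKO in red above WT in blue, a point for the mean and a line from the lowest to the highest library. Ctsl stands highest in both groups, and in Optn and Atg12 the cKO line lies left of the WT line.

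Other genes of the same pathways, 117 in 6 lists, were read from the same fit, in which 115 were tested. These lists too were chosen with earlier results of these data known, so they give no independent support. Receptors, the acidifying pump and other lysosomal genes had medians below -1, while initiation, fusion and upstream control had medians near 0. Over all genes tested, 52.7% had a negative value, and 8.89% were lower and 3.4% higher at an unadjusted p under 0.05. Of 10 further receptors tested, all 10 had a negative value (median -1.51) and 4 had an unadjusted p under 0.05. Tollip, a receptor for ubiquitinated aggregates, was at -2.08 ± 0.64, and Ccpg1, a receptor for the endoplasmic reticulum, was at -2.05 ± 0.81. Tollip had 20 and 3 reads in cKO and Ccpg1 had 6 and 4. Of 16 genes of the v-ATPase, the proton pump that acidifies lysosomes, 15 had a negative value (median -1.32, beside 52.7% negative over all genes tested) and 9 were lower at an unadjusted p under 0.05 (beside 8.89%). Atp6v1e1 was at -1.79 ± 0.65, with 34.5 and 20.5 CPM in cKO, against 19.2 CPM in WT replicate 1 and 90.1 to 135 CPM in WT replicates 2 to 6. Atp6ap2 rested on 2 reads in cKO, so its fitted value is not given.

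Of 37 further lysosomal genes tested, 32 had a negative value and 5 a positive one (median -1.14), 9 with an unadjusted p under 0.05. Naglu, a heparan sulphate hydrolase, had 28.4 and 24.6 CPM in cKO, against a lowest of 37.4, a median of 149 and a highest of 267 CPM in WT (-2.42 ± 0.71), without overlap of the groups. The 18 further initiation and membrane genes split evenly, 9 negative and 9 positive. Among them Atg2a, a lipid transfer protein, was higher in both cKO libraries than in any WT library, with 79.2 and 56.0 CPM in cKO, against 19.8 to 46.7 CPM in WT (unadjusted p = 0.0315 in edgeR). Uvrag, a partner of Beclin 1, was at -1.09 ± 0.50. The 12 genes for fusion of the autophagosome with the lysosome had a median of -0.20. Vamp8, a SNARE protein of that step, was at -2.07 ± 0.62 without overlap of the groups, and the small GTPase gene Rab7 was at -0.97 ± 0.53. The 22 genes of mTORC1 and AMPK control, which decide when autophagy starts, had a median of 0.09. Lamtor5 and Lamtor1, parts of the complex that holds mTORC1 at the lysosome, were at -3.03 ± 0.82 and -1.53 ± 0.63, with 11.7 and 12.3 CPM of Lamtor5 in cKO, against a lowest of 17.6, a median of 96.0 and a highest of 166 CPM in WT. In edgeR no gene of these lists had an adjusted p under 0.05, 28 had an unadjusted p under 0.05 and a lower level in cKO (8.89% of all genes tested) and 1 a higher one (3.4%), and their lowest adjusted p was 0.369.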

How the data were processed

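Granulosa cells were dissected by laser, and polyadenylated RNA was amplified with a Smart-seq2 method and tagged with Tn5, per the labels' protocols. This does not mark strand. The exons of 14 members overlap another annotated gene (GENCODE M21), and reads from the shared bases cannot be told from reads of that gene. The shared part ran from 10 of 1441 exon bases in Ctsz to 3104 of 7065 in Becn1. Ctsd shares 808 of 2351 with Gm49369, on the same strand. The authors deposited estimated counts, TPM and transcript lengths per library (other values: length in bases). Per the submitters' processing notes, HISAT2, Salmon and mm10 were used. They name no annotation. The 1548 of 36635 rows with no gene name (0.435% to 0.739% of reads) were left out.

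The deposited estimated counts were rounded and filtered by filterByExpr (minimum count 10, minimum total 15). Groups were compared on 15102 genes with TMM scaling in edgeR 4.0.16 (glmQLFit and glmQLFTest, R 4.3.3), and p-values were adjusted by Benjamini and Hochberg (threshold 0.05). CPM values are counts scaled by TMM library size (cpm in edgeR), the TPM values are as the authors deposited them, and SE is derived from the F statistic. The fit was tested on simulated data with 200 changed genes. It called 14% of them at a 4-fold change and 68% at a 16-fold change, with 4 false calls each time. Alternatives used DESeq2 1.42.0 and limma 3.58.1 with a pseudocount of 1. The 28 pairs of libraries differed by more than sampling noise. Counting limits of 3 reads cover counting error only.

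Members and lists were chosen with earlier results of these data known. Values by library (in WT all 6, or the lowest, median and highest) were given for receptors, ATG8 genes, Tfeb, Tfe3, Ulk1, Becn1, members whose groups do not overlap, and the 2 members with the smallest p of each role. For the other lists the 2 genes with the smallest p were named, except 1 gene that is not reported here. Retreg1 was matched to no row and Ctss did not pass the filter.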

Additional observations from a re-analysis of the deposited data

Results flagged for a closer look

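For 3 of the 38 genes, 1 WT library lay far from the other 5, by a test on the gap to the nearest library, which chance alone meets in about 1 of 20 groups. The 3 of 38 genes are near that rate, and the share over all genes is not given here. In each case it was WT replicate 1 that was high, a library that was also the highest WT library in 24.7% of all genes tested. It had 803 CPM of Atg9a, where the next WT library had 299.9 CPM. It had 68.1 CPM of Atg7, where the next had 31.4 CPM, and 15.4 CPM of Tfeb, where the next had 2.73 CPM. The cKO libraries had 377 and 486 CPM of Atg9a, 40.6 and 30.1 CPM of Atg7, and 11.7 and 6.83 CPM of Tfeb.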

How the results depend on the processing

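Between 33 and 38 of the 38 genes kept their sign under scaling, filter, test and leave-one-out changes, and fewer did with fewer libraries or a covariate: 27 in the libraries numbered 1 and 2 and 27 with a replicate block, which leaves 1 residual degree of freedom, and 23 with each library's detected genes as a covariate, whose values do not overlap between the groups. The cause was not tested. Depth limits cKO replicate 2 most, where 3 reads are 4.10 CPM. Over all genes, 253 were called by DESeq2, 478 with no filter, 5 by limma on log2(TPM + 1) and 1 with a replicate block, against 0 in edgeR's comparison of all libraries. Of the 38 genes, 2 were called by DESeq2 and 6 with no filter (Map1lc3a, Gabarap, Gabarapl2, Sqstm1, Ctsd and Ctsl), and 0 when any WT library was left out. The number of genes tested with no filter is not given here, so the 6 cannot be set beside a share over all genes. At an unadjusted p under 0.05, 1 was lower with the covariate (Neu1), 1 in the libraries numbered 1 and 2 and 0 with the replicate block, and 0 to 17 were lower and 0 to 1 higher when a library was left out. The median of the machinery was 0.14 with the covariate, and -1.25 to -0.20 when a library was left out. That of lysosomal genes was -0.15 with the covariate and -0.46 in the libraries numbered 1 and 2, and -1.92 to -0.78 when a library was left out. That of receptors was -0.52 with the covariate, -0.67 in the libraries numbered 1 and 2, -1.30 with limma and -0.74 with the replicate block, and -2.34 to -1.31 when a library was left out. The median over all genes was -0.08, and it was 0.05 with DESeq2 size factors, 0.31 with DESeq2, -0.26 with the covariate, -0.27 without cKO replicate 1 and -0.34 without cKO replicate 2.

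Signs changed in these genes, some of them far from 0 in the comparison of all libraries. With DESeq2 size factors Atg13 was at 0.00032, Becn1 at 0.013 and Lipa at 0.13, and with DESeq2 Becn1 was at 0.0088 and Lipa at 0.12. With no filter Atg7 was at -0.020. With limma Ulk2 was at 0.075, Atg13 at 0.24, Atg7 at -0.58, Tfe3 at 0.029 and Lipa at 0.13. With the covariate Ulk2 was at 1.41, Becn1 at 0.91, Pik3c3 at 0.80, Atg9a at -0.42, Atg3 at 0.68, Atg4b at 0.36, Map1lc3b at 0.97, Gabarapl1 at 0.34, Nbr1 at 0.18, Tfe3 at 0.93, Cd63 at 0.29, Mcoln1 at 0.60, Ctsb at 0.024, Hexa at 1.10 and Lipa at 1.41. In the libraries numbered 1 and 2, Ulk2 was at 0.26, Atg13 at 0.54, Becn1 at 0.46, Atg9a at -0.16, Atg3 at 0.16, Atg7 at -0.44, Gabarapl1 at 0.36, Tfe3 at 0.52, Lamp1 at 0.059, Lamp2 at 0.85 and Lipa at 0.52. With the replicate block Ulk1 was at -0.092, Ulk2 at 0.30, Atg13 at 0.46, Becn1 at 0.60, Atg3 at 0.043, Atg7 at -0.42, Gabarapl1 at 0.024, Tfe3 at 0.44, Lamp1 at 0.0055, Lamp2 at 0.73 and Lipa at 0.48. When a library was left out, Ulk1 ran from -0.28 to 0.67, Ulk2 from -0.60 to 0.14, Atg13 from -0.35 to 0.17, Becn1 from -0.30 to 0.16, Atg7 from -0.28 to 0.33, Gabarapl1 from -1.80 to 0.22, Mcoln1 from -0.54 to 0.10 and Lipa from -0.13 to 0.43. No label says that a number pairs libraries. Deviations of same-numbered libraries from their group means correlated at -0.29 for number 1 and -0.17 for number 2, but with 2 cKO libraries these deviations mirror each other, so the values cannot show whether the numbers pair.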
